A study of Mus musculus with 3 samples.

Results

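The genes described here code for collagens, elastic fibre proteins, matrix proteoglycans and a few adhesive glycoproteins of the extracellular matrix. Members were the protein-coding genes whose symbol is that of a collagen chain, of decorin, lumican, biglycan, fibromodulin, osteoglycin, versican or aggrecan, of a fibrillin or fibulin, or of elastin, fibronectin, SPARC or periostin. This gave 61 genes of the 52661 identifiers measured, 44 of them collagens and 17 not. Their RNA was read by bulk sequencing in 3 libraries of sorted mouse mammary cells, 1 per population. The CD36+ library came from cells labelled CD36+ and PDPN-, the DN (double-negative) library from cells negative for both proteins, and the PDPN+ library from cells labelled CD36- and PDPN+. CD36 is a fatty acid receptor and PDPN is podoplanin, a membrane glycoprotein. Per the labels, all populations were PROCR-positive mammary cells gated for EpCAM and for high CD49f, and the titles give the CD36+ and DN cells as Cdh5+ and the PDPN+ cells as Cdh5-. The sources used here give no strain, age or number of mice or cells.

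Fibrillar collagens such as types I, III and V form the ropes of connective tissue, and small leucine-rich proteoglycans such as decorin bind these fibrils and govern their width. Type IV collagen forms the sheet-like network of basement membranes, which underlie mammary epithelium and surround blood vessels. Elastic fibres are made of elastin on a scaffold of fibrillin microfibrils, with fibulins at the interface.

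The libraries held 67675778 (CD36+), 51138993 (DN) and 63871266 (PDPN+) estimated counts. Levels of a gene across libraries are given in CPM, counts scaled to library size with TMM factors, and levels of different genes within a library in TPM, which is corrected for transcript length. At 10 CPM a gene had 592, 505 and 740 counts in the same order of libraries, and counting error alone then spanned 9.21 to 10.8, 9.15 to 10.9 and 9.30 to 10.8 CPM. With 1 library per population there is no spread between replicates, so no test was made, and each ratio compares libraries and not populations. Intervals of ratios are exact 95% (Clopper-Pearson) intervals that cover counting error only. "Apart" stands for a ratio of 4-fold or more with 10 CPM or more in the higher of the pair.

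The RNA matched the labels in part. Pdpn was at 12.5 CPM in CD36+, 32.3 CPM in DN and 830.2 CPM in PDPN+, and Cdh5, an endothelial cadherin, at 465, 206 and 0.176 CPM, both as labelled. Procr was at 746, 528 and 208 CPM, and Itga6, which codes for CD49f, at 436, 399 and 1021 CPM. Against the labels, Cd36 RNA was plentiful in a population sorted as CD36-, and Epcam was low in both CD36+ and DN. The CD36+ library held Cd36 at 4766 CPM, the DN library, sorted as CD36-, at 1523 CPM, and the PDPN+ library at 45.1 CPM. Epcam, part of the gate for all cells, was at 50.7, 104 and 560.1 CPM in the same order. The 10 endothelial markers summed to 5556, 3755 and 128 CPM, and the 8 basal epithelial markers to 67.0, 451 and 7416 CPM, with Perp at 0 counts in the CD36+ library. The 6 lymphatic endothelial markers summed to 64.4, 3503 and 119 CPM, and the DN sum was mostly Ccl21a. In bulk RNA, fewer cells of a type and less RNA per cell cannot be told apart. Extraction used either of 2 kits and library preparation either of 2 kits, and the sources used here do not say which served which library.

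Promoter sequences are shown for 5 genes whose levels separate the libraries or whose start sites lie back to back. They run from 250 bases before to 50 bases after the RefSeq start on GRCm38.p6, 5′ to 3′ on the strand of the gene. In the first pair, of the type IV collagen chains Col4a1 (chr8:11312777-11313076, minus strand) and Col4a2 (chr8:11312555-11312854, plus strand), capitals mark the 78 bases that both windows share.
Col4a1: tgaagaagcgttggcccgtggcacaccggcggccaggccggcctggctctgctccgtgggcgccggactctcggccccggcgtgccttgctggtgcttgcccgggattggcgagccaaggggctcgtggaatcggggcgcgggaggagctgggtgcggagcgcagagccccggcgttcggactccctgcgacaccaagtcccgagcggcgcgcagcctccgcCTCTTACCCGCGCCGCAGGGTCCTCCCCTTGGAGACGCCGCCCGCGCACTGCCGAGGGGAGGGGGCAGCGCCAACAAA
Col4a2: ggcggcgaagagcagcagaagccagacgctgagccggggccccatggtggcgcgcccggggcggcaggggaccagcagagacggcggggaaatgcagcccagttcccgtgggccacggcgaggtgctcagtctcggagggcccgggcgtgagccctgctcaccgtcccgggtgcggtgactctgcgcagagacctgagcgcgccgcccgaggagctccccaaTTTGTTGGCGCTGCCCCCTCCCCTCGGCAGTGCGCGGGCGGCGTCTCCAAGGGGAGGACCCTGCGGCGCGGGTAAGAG
In the next genes, Postn (chr3:54360857-54361156, plus strand), Col17a1 (chr19:47691993-47692292, minus strand) and Col15a1 (chr4:47207762-47208061, plus strand), capitals mark TATAAA and CAGCTG, searched on both strands. They were chosen because Postn and Col17a1 were far higher in the PDPN+ library, while Col15a1 had no counts there.
Postn: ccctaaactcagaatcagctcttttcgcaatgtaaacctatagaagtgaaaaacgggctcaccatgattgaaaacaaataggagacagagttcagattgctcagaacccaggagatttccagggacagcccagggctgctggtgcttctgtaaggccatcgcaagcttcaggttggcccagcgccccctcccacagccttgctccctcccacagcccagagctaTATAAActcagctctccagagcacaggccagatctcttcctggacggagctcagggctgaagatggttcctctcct
Col17a1: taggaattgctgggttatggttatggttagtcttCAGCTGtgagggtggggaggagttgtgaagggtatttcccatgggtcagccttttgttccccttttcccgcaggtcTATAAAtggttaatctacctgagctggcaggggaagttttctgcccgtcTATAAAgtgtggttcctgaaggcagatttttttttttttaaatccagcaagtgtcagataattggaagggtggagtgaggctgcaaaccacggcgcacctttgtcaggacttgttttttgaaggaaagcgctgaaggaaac
Col15a1: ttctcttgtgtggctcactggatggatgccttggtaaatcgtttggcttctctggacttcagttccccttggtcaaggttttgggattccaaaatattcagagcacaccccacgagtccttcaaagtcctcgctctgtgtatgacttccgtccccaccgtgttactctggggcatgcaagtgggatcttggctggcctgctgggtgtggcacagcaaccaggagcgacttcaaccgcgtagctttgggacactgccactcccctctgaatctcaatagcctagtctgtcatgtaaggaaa
The Postn window held TATAAA with its first base at -26 from the start, Col17a1 held it at -140 and -91 and CAGCTG at -216, and Col15a1 held neither. Of the 61 members, 47 had a RefSeq window. TATAAA was in 7 of these (14.9%), against 13.6% of all 32851 windows, and CCAAT in 17 (36.2%), against 37.4%. GGGCGG was in 28 member windows (59.6%), against 35.7% of all windows. CAGCTG was in 13 (27.7%), against 16.3%, and CAGGTG in 6 (12.8%), against 20.2%. For each member only the window nearest its gene start in GENCODE was used. The 32851 windows were neither reduced in this way nor limited to protein-coding genes, so the shares are of unlike sets. For Col25a1 the RefSeq start lay 49344 bases from the GENCODE start. These matches describe letters in a window and show no binding.

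Of the 61 members, 40 reached 10 CPM in at least 1 library, 13 stayed between 1 and 10 CPM in their highest library and 8 were below 1 CPM everywhere. The 8 lowest were Col2a1, Col6a6, Col8a2, Col10a1, Col19a1, Col24a1, Col28a1 and Acan. Members at 10 CPM or more numbered 15 in the CD36+ library, 18 in the DN library and 34 in the PDPN+ library. Among the 40, the highest library was CD36+ for 9, DN for 5 and PDPN+ for 26. The same counts over all genes are not given here, so these have no background. The 40 were picked by their highest library, and 34 of them reached 10 CPM in PDPN+. Member genes took 0.219%, 0.165% and 0.390% of all counts in the CD36+, DN and PDPN+ libraries.

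**Figure D1:**
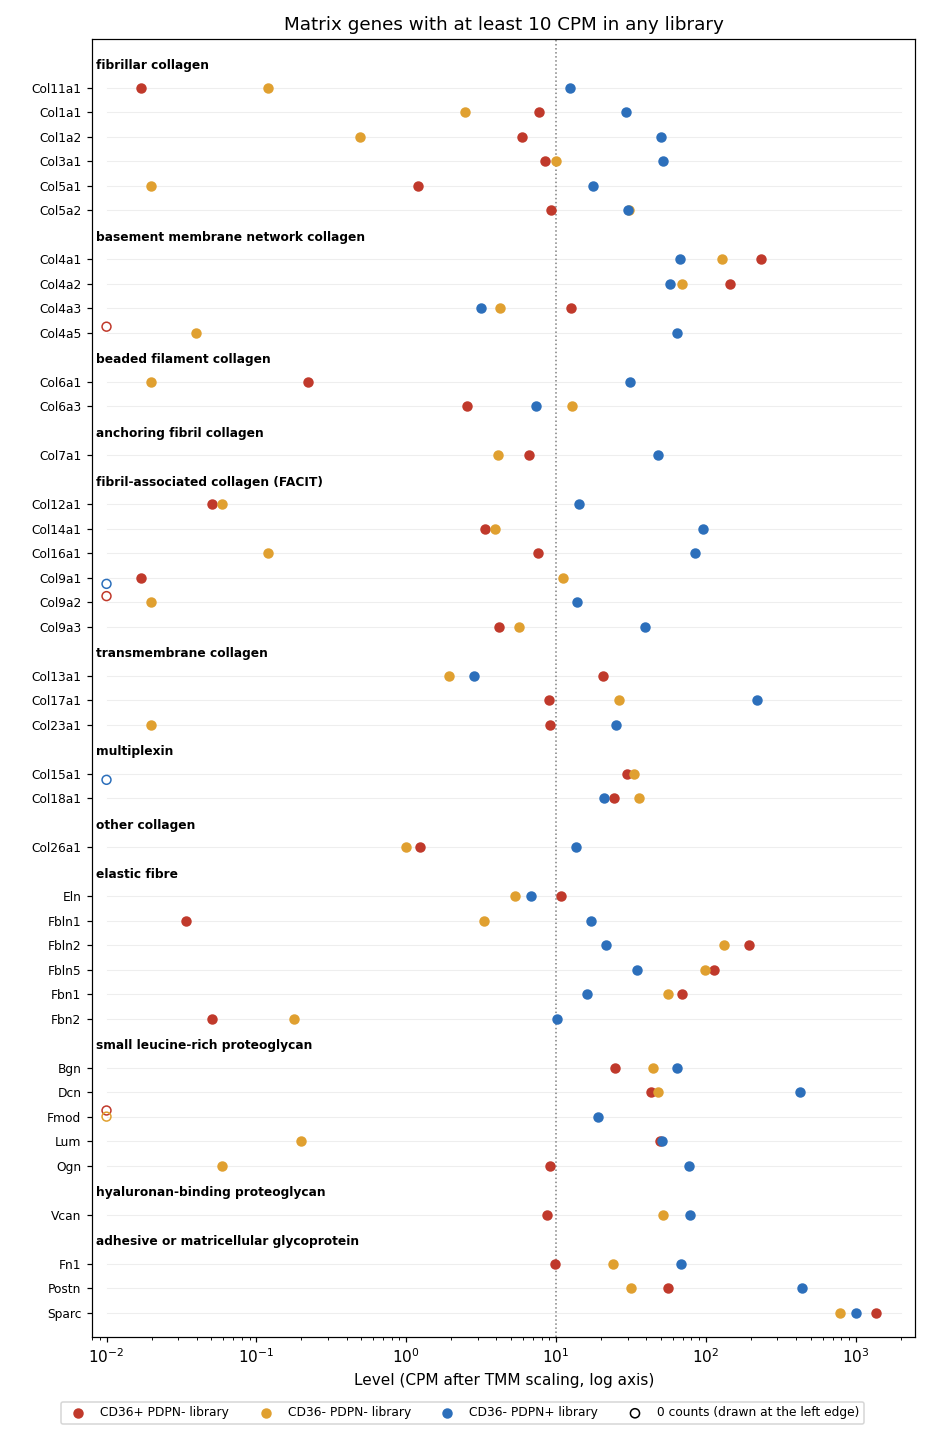
Level of each of the 40 members that reached 10 CPM (horizontal log axis, CPM after TMM scaling), grouped by kind of protein. Each point is 1 library, open points at the left edge have 0 counts, and the dotted line marks 10 CPM. The PDPN+ point is the rightmost for 26 of the 40 genes, a count given for the members only.

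Between the CD36+ and PDPN+ libraries, 38 members had at least 10 CPM in either, and 4 were apart higher in the CD36+ library and 22 lower. Across all 9387 genes tested in the same way, 15.1% were higher and 17.6% lower, while among the members it was 10.5% higher and 57.9% lower. The median log2 ratio of the members was -2.92, against -0.02 over all genes. The DN library set against PDPN+ had 3 members higher and 23 lower of 37 tested, beside 15.0% higher and 19.3% lower among 9515 genes, with a median log2 ratio of -3.15 against -0.11. Both comparisons use the same PDPN+ library. Most members apart lower in CD36+ or DN were below 10 CPM there, so they were tested only through their PDPN+ level. The shares and medians of members lean on that filter, which was also used for all genes. The CD36+ library set against the DN library had 2 members higher and 3 lower of 22 tested, beside 12.3% higher and 12.0% lower among 8968 genes, and the median was 0.03 against 0.11. The member shares there, 9.09% higher and 13.6% lower, were near the background.

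The split of calls moved with the scaling. With total counts, CD36+ had 1121 genes higher and 2124 lower relative to PDPN+, against 1420 and 1656 with TMM, while members numbered 3 higher and 24 lower. With upper quartile factors, 1660 genes were higher and 1381 lower, and 6 members higher and 21 lower.

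**Figure D2:**
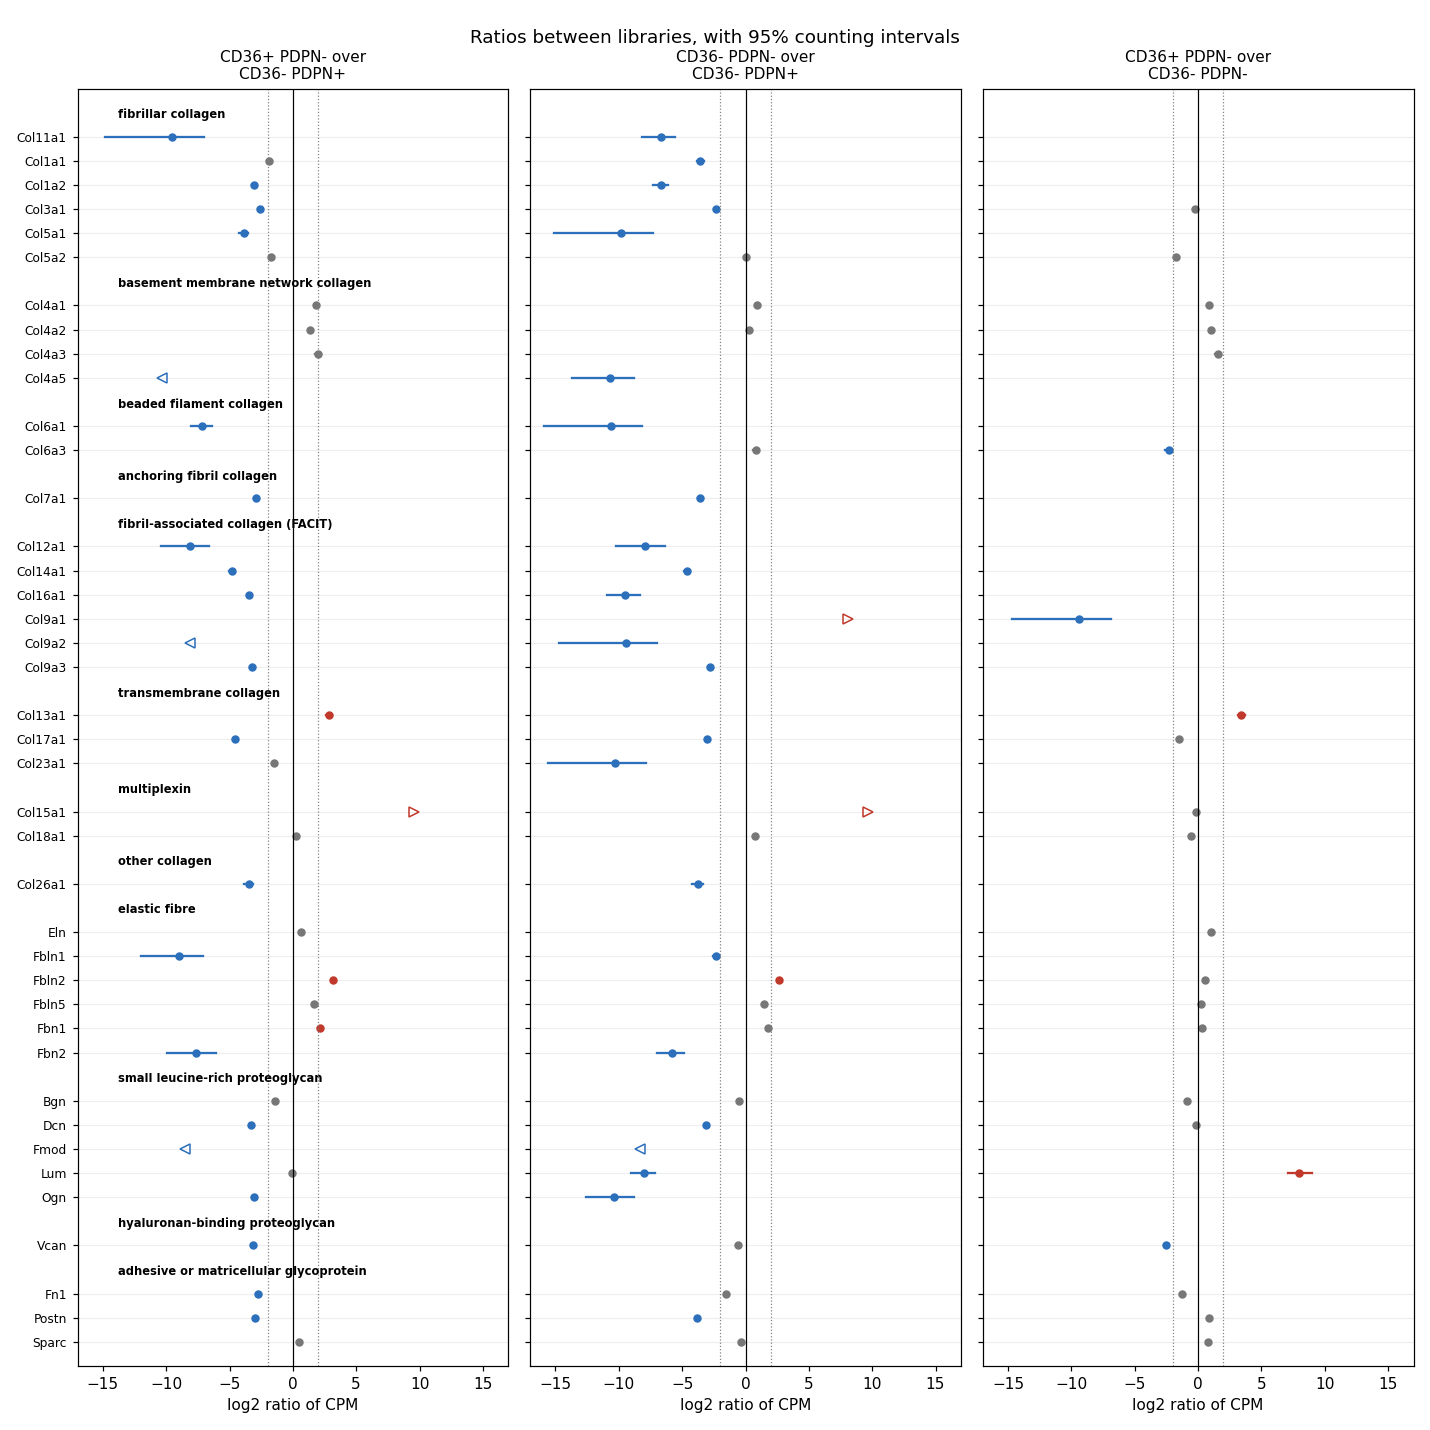
Log2 ratio of CPM for each pair of libraries, the first named over the second, for members with at least 10 CPM in either. Bars are 95% counting intervals, triangles are bounds against a library with 0 counts, dotted lines mark 4-fold, and coloured points are apart. Most coloured points in the left and middle panels lie below 0, with 22 and 23 members lower.

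Of 6 fibrillar collagens tested, 4 were apart lower in the CD36+ library and 5 in the DN library, each relative to PDPN+, and none was apart higher. Over all genes tested, 17.6% were lower in CD36+ and 19.3% in DN. Col1a2, a chain of type I collagen (chr6:4504814-4541544), was at 5.96 CPM in CD36+, 0.495 CPM in DN and 50.2 CPM in PDPN+. It was 8.42-fold lower in CD36+ (7.54 to 9.41) and 101-fold lower in the DN library (68.6 to 157). Its partner chain Col1a1 was at 7.72, 2.46 and 29.1 CPM, which is 3.77-fold lower in CD36+ and so short of 4-fold, and 11.9-fold lower in the DN library. With total counts and in TPM it was past 4-fold in CD36+ too, at 4.99-fold and 5.29-fold lower. The ratio of Col1a1 to Col1a2 in TPM was 1.08, 3.05 and 0.520. Col3a1, the type III chain, was at 8.46, 10.04 and 51.8 CPM, and was 6.13-fold and 5.16-fold lower in the CD36+ and DN libraries than in PDPN+. The type V chains, which start fibrils, differed from each other. Col5a1 was at 1.20, 0.0198 and 17.5 CPM, while Col5a2 was at 9.27, 30.6 and 30.2 CPM. Col5a2 was thus level between the DN and PDPN+ libraries (ratio 1.01, 0.95 to 1.08), and its direction there turned with total counts and in TPM. In CD36+ it was 3.25-fold lower than in PDPN+, and 4.31-fold lower with total counts. Col11a1, a chain of the cartilage type XI fibril, was at 0.0169, 0.119 and 12.3 CPM.

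Of type IV collagen, the chains Col4a1 and Col4a2 went the other way in the CD36+ library. Col4a1 (chr8:11198423-11312826) was at 233, 128 and 67.5 CPM, and Col4a2 (chr8:11312805-11449287) at 144, 69.3 and 57.4 CPM. The CD36+ library was highest for both, 3.46-fold (3.34 to 3.57) and 2.51-fold (2.42 to 2.61) above PDPN+, which is short of 4-fold, though Col4a1 reached 4.17-fold with upper quartile factors. The DN library was 1.90-fold above PDPN+ for Col4a1 and 1.21-fold for Col4a2, a direction that turned in TPM. These genes start head to head and overlap by 22 bases, where reads cannot be assigned without strand. Col4a3 was at 12.5, 4.20 and 3.16 CPM, and its direction turned in TPM in both comparisons of the CD36+ library. It was 3.96-fold above PDPN+ in CD36+, and 4.77-fold with upper quartile factors. Its exons share 563 bases with C430014B12Rik on the opposite strand, which was at 2.01, 0.416 and 0.730 CPM. Col4a4, head to head with Col4a3, was highest in PDPN+, at 0.287, 0.0396 and 2.22 CPM. Col4a5 (chrX:141475385-141689234), a chain that joins Col4a6 in epithelial basement membranes, was at 0, 0.0396 and 64.3 CPM. It was at least 1269-fold lower in CD36+, taking 3 counts as the floor, and 1623-fold lower in the DN library (449 to 13407, from 2 counts). Col4a6, 1308 bases away from Col4a5 and head to head with it, was at 0.0169, 0.357 and 7.41 CPM. Summed over the type IV chains, TPM was 139, 63.7 and 89.1.

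**Figure D3:**
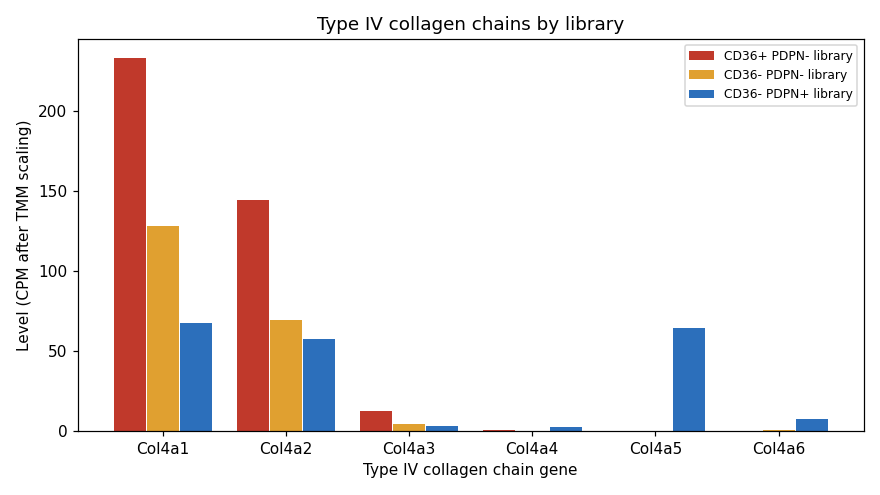
Level of the 6 type IV collagen chains in CPM (linear axis from 0) in the CD36+, DN and PDPN+ libraries. Col4a1 and Col4a2 are highest in the CD36+ library at 233 and 144 CPM, and Col4a5 stands out in the PDPN+ library at 64.3 CPM.

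Collagens that tie epithelium to its basement membrane were highest in the PDPN+ library. Col17a1 (chr19:47646344-47692094), a transmembrane collagen of hemidesmosomes, was at 9.02, 26.1 and 219 CPM. It was 24.3-fold lower in CD36+ (22.3 to 26.5) and 8.39-fold lower in the DN library (7.93 to 8.88). Col7a1, which forms the anchoring fibrils beneath such membranes, was at 6.55, 4.10 and 48.1 CPM, and was 7.34-fold and 11.7-fold lower in the CD36+ and DN libraries. The basal epithelial markers were also highest in this library, and their part in these levels was not tested.

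Col13a1 (chr10:61838236-61979108), a transmembrane collagen, was at 20.4, 1.92 and 2.81 CPM, so that only the CD36+ library reached 10 CPM. It was 7.26-fold above PDPN+ (6.26 to 8.45) and 10.6-fold above the DN library (8.64 to 13.2). Col23a1 and Col25a1, also transmembrane collagens, were highest in PDPN+, at 9.14, 0.0198 and 25.1 CPM and at 1.27, 1.72 and 6.94 CPM. Multiplexins sit at the outer face of basement membranes. Col15a1 (chr4:47208161-47313167), a multiplexin, was at 29.8 and 33.1 CPM in the CD36+ and DN libraries and had 0 counts in PDPN+. Against a floor of 3 counts it was at least 735-fold higher in CD36+ and at least 815-fold higher in the DN library. Its relative Col18a1, the source of endostatin, was at 24.5, 35.7 and 20.7 CPM, with no ratio to PDPN+ above 1.72-fold, and its direction in CD36+ turned with total counts.

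Fibril-associated collagens, which decorate the surface of fibrils, were mostly far lower in the CD36+ and DN libraries. Col14a1 was at 3.36, 3.90 and 94.9 CPM, 28.2-fold and 24.3-fold lower than in PDPN+. Col16a1 was at 7.58, 0.119 and 85.1 CPM, and Col12a1 at 0.0507, 0.0594 and 14.3 CPM. Summed over the 9 fibril-associated chains, TPM was 8.42, 11.4 and 233, and Col16a1 alone held 142 TPM in PDPN+. Its ratio differed by unit: in CD36+ it was 11.2-fold lower than in PDPN+ in CPM and 50.5-fold lower in TPM. The type IX chains, partners in 1 cartilage trimer, differed in their highest library. Col9a1 was at 0.0169 and 11.1 CPM in the CD36+ and DN libraries and had 0 counts in PDPN+, at least 274-fold higher in the DN library. Col9a2 was at 0, 0.0198 and 13.9 CPM, and Col9a3 at 4.19, 5.66 and 39.0 CPM. Of the beaded filament type VI, Col6a1 was at 0.220, 0.0198 and 31.3 CPM, while Col6a3 was at 2.55, 12.8 and 7.37 CPM. Col6a3 was 5.0-fold lower in CD36+ than in the DN library (4.18 to 6.01), and its direction between the DN and PDPN+ libraries turned in TPM. Col26a1 was at 1.23, 0.990 and 13.7 CPM.

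Elastic fibre genes split by gene. Fbln2 (chr6:91212455-91272540), a fibulin of basement membranes and elastic fibres, was at 193, 133 and 21.4 CPM. It was 9.01-fold above PDPN+ in CD36+ (8.55 to 9.51) and 6.19-fold in the DN library (5.86 to 6.54). Fbn1, the main fibrillin of microfibrils, was at 69.2, 55.5 and 16.0 CPM, 4.33-fold and 3.47-fold above PDPN+. In CD36+ it was under 4-fold with total counts (3.27-fold) and in TPM (3.08-fold), and in DN it passed 4-fold with upper quartile factors (4.23-fold). Fbln5, needed to assemble elastic fibres, was at 113, 98.5 and 34.9 CPM, 3.24-fold and 2.82-fold above. Elastin itself (Eln) was at 10.8, 5.31 and 6.79 CPM, and its direction in CD36+ relative to PDPN+ turned in TPM. Fbln1 and Fbn2 ran in the opposite direction, at 0.0338, 3.33 and 17.1 CPM and at 0.0507, 0.178 and 10.1 CPM. The summed TPM of the group was 192, 160 and 66.1, of which Fbln2 alone held 124, 93.9 and 20.1.

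Small leucine-rich proteoglycans held most of their transcripts in the PDPN+ library, where they summed to 598 TPM, against 79.5 and 70.9 TPM in CD36+ and DN. Dcn alone held 451 TPM of the PDPN+ sum. Dcn (decorin, chr10:97479609-97518143) was at 43.1, 47.8 and 423 CPM. It was 9.81-fold lower in CD36+ (9.42 to 10.2) and 8.85-fold lower in the DN library (8.49 to 9.23). Lum (lumican), 46984 bases from Dcn on the same strand, did not follow it. Lum was at 49.0, 0.198 and 51.1 CPM, so it was level in CD36+ and PDPN+ (ratio 0.959, 0.913 to 1.01, and higher in CD36+ with upper quartile factors) and 258-fold lower in the DN library (140.2 to 539). Ogn (osteoglycin) was at 9.10, 0.0594 and 77.1 CPM. Fmod (fibromodulin) had 0 counts in the CD36+ and DN libraries and 19.0 CPM in PDPN+, at least 376-fold and at least 320.4-fold lower. Bgn (biglycan) was at 24.6, 44.6 and 64.0 CPM, and neither library was 4-fold from PDPN+. Vcan (versican), a proteoglycan that binds hyaluronan, was at 8.75, 51.6 and 77.7 CPM, 8.88-fold lower in CD36+ than in PDPN+ (8.11 to 9.73) and 5.89-fold lower than in the DN library (5.36 to 6.49). In TPM, Vcan was at 9.69, 10.3 and 50.7, so that CD36+ and DN were nearly level (1.06-fold lower in CD36+) and DN was 4.92-fold lower than PDPN+, where it was 1.51-fold lower in CPM.

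Fibroblasts are a known source of decorin, lumican and fibrillar collagen, and markers of that cell type went in both directions. Relative to PDPN+, 3 were apart higher and 4 lower of 7 tested in CD36+, and 2 higher and 4 lower of 6 tested in DN. Over all genes tested, 15.1% were higher and 17.6% lower in CD36+, and 15.0% and 19.3% in DN. The 10 fibroblast markers summed to 847, 482 and 214 CPM, but most of this was Cd34 and Ly6c1, which endothelial cells also express. Without these genes, a choice made after their values were seen, the other 8 summed to 19.9, 10.4 and 172 CPM. Most of that remaining sum in CD36+ was Lox, which was far lower in DN and PDPN+ (values given with the lysyl oxidases below). Serpinf1 and Dpt were at 72.8 and 56.2 CPM in the PDPN+ library, while Pdgfra was at 5.56 CPM there and Tcf21 had 0 counts. Clec3b, Mfap5 and Serpinf1 had 0 counts in the CD36+ library, and Serpinf1 and Tcf21 in the DN library. The part of such cells in the levels above was not tested. Pericyte and smooth muscle markers summed to 259, 189 and 70.6 CPM, largely Rgs5, with Higd1b at 0 counts in every library. Luminal epithelial markers summed to 341, 272 and 635 CPM, and Schwann cell markers to 6.62, 9.59 and 70.2 CPM. Immune markers summed to 15.4, 1.17 and 7.11 CPM, with Tyrobp at 0 in every library, and adipocyte markers to 4.26, 3.66 and 3.19 CPM, with Adipoq at 0 in every library.

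Among the adhesive glycoproteins, Sparc (chr11:55394500-55423183), which binds collagen and is known from cells that remodel matrix, had the highest TPM of all members in every library, at 769, 476 and 780.2 TPM. In CPM it was at 1369, 782 and 1000.2, and its direction in CD36+ relative to PDPN+ turned in TPM. Postn (periostin, chr3:54361109-54391037) was at 56.1, 31.6 and 438 CPM, 7.80-fold lower in CD36+ (7.52 to 8.08) and 13.8-fold lower in the DN library (13.2 to 14.6). Fn1 (fibronectin) was at 9.81, 23.9 and 68 CPM, 6.93-fold and 2.85-fold lower than in PDPN+.

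Ordered by TPM within a library, Sparc was followed in CD36+ by Fbln2 (124 TPM), Col4a1 (109 TPM) and Fbln5 (53.6 TPM). The DN library had the same genes in another order, with Fbln2 at 93.9 TPM, Fbln5 at 53.2 TPM and Col4a1 at 45.1 TPM. In PDPN+, Sparc was followed by Dcn (451 TPM), Postn (371 TPM), Col16a1 (142 TPM), Col7a1 (70.2 TPM) and Col17a1 (64.1 TPM). All members together summed to 1308, 893 and 2508 TPM, and the collagens alone to 213, 151 and 612 TPM.

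**Figure D4:**
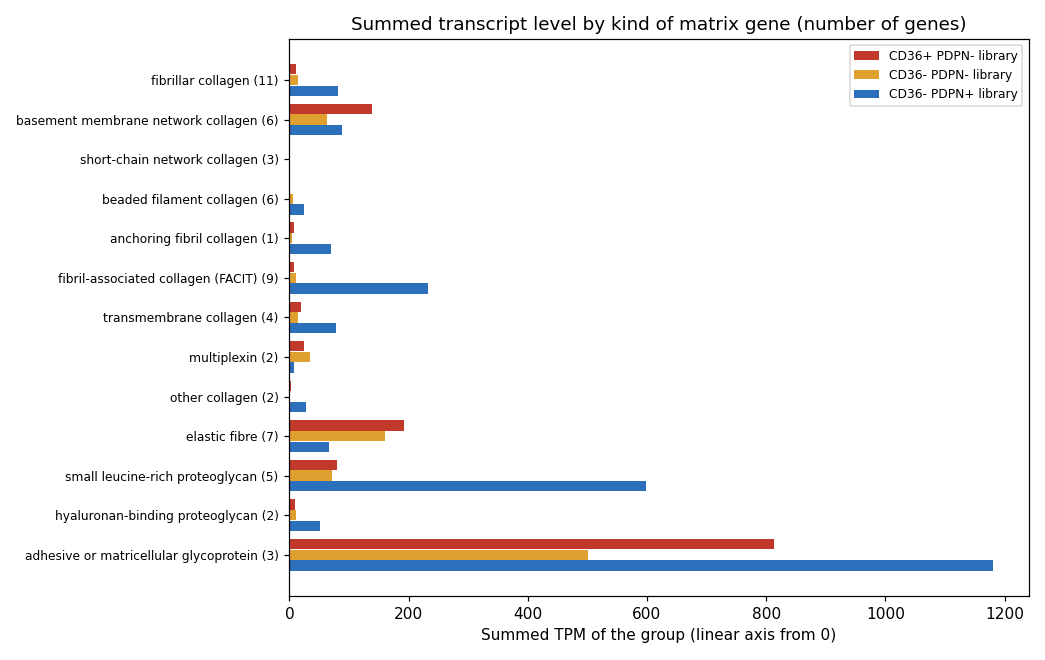
Summed TPM (linear axis from 0) of each kind of matrix gene in the CD36+, DN and PDPN+ libraries, with the number of genes in brackets. Small leucine-rich proteoglycans reach 598 TPM in the PDPN+ library, while elastic fibre genes are highest in CD36+ at 192 TPM.

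The reads and the TPM of a gene together give the mean effective length of the transcripts its reads were assigned to, and this could be compared for the 22 members with at least 100 counts in every library. For 4 of them (18.2%) the highest library was at least 2-fold above the lowest, beside 850 of 7387 protein-coding genes (11.5%). Vcan had implied lengths of 993, 6043 and 2365 bases in the CD36+, DN and PDPN+ libraries. Col6a3 had 8619, 2553 and 1617 bases, Col4a3 3114, 979 and 1012 bases, and Col9a3 958, 2243 and 1345 bases. Col17a1, at 5286, 2972 and 5283 bases, differed in the DN library. Col1a1, Col4a2, Col5a2 and Fbn1 differed by less than 1% between libraries. Where the lengths differ, a ratio in CPM and a ratio in TPM differ too, which is the case for Vcan, Col4a3 and Col6a3 above. Col17a1 was 2.90-fold lower in CD36+ than in DN in CPM and 5.66-fold lower in TPM.

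**Figure D5:**
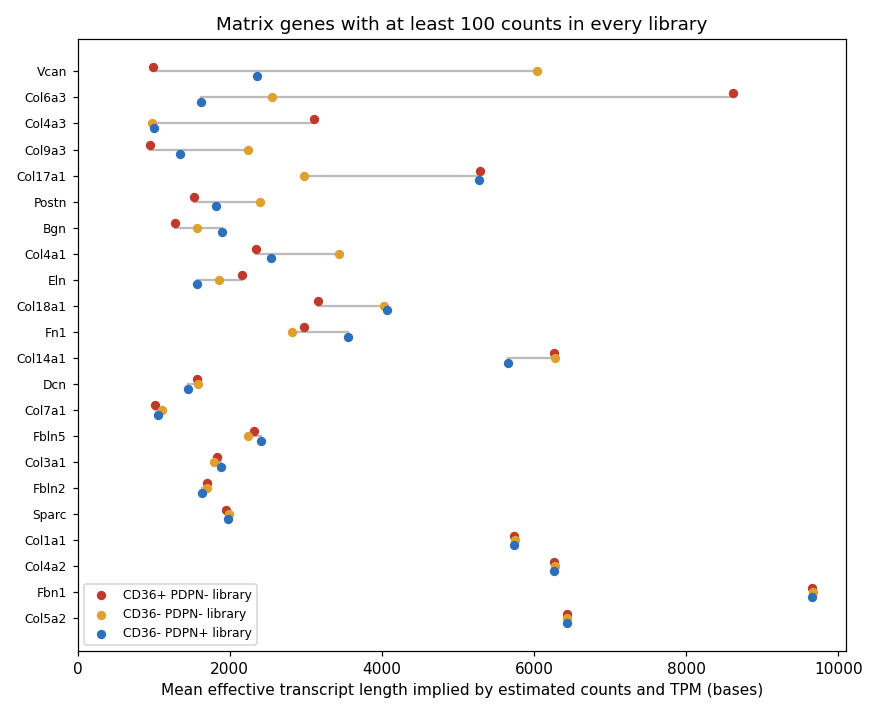
Mean effective transcript length in bases (linear axis from 0) implied by the deposited estimated counts and TPM, for the 22 members with at least 100 counts in every library. Points of the 3 libraries coincide for genes such as Col1a1 and Fbn1 and spread for Vcan, from 993 to 6043 bases.

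Genes that fold and modify collagen had a median log2 ratio of -0.11 in CD36+ and -1.02 in DN, each over PDPN+, beside -3.07 and -3.55 for the collagens. Most collagens tested were below 10 CPM in CD36+ and in DN, so they were tested only through their PDPN+ level. Folding genes at 10 CPM or more numbered 12, 10 and 13 in CD36+, DN and PDPN+. The medians are thus of unlike sets. Of 18 folding and hydroxylation genes, 14 were tested between CD36+ and PDPN+, where 1 was higher and 0 lower, and 13 between DN and PDPN+, where 0 were higher and 2 lower. Among all genes tested, 15.1% were higher and 17.6% lower in CD36+, and 15.0% and 19.3% in DN, each relative to PDPN+. P4hb, a subunit of prolyl 4-hydroxylase, was at 190.1, 304 and 195 CPM, and its partner P4ha1 at 132, 149 and 168 CPM. Serpinh1, the collagen chaperone HSP47, was at 129, 67.3 and 212 CPM. Fkbp14, a prolyl isomerase, was the 1 gene apart higher in CD36+ relative to PDPN+, at 41.6, 0.0594 and 0.0135 CPM. Between CD36+ and DN, 3 of 13 folding genes tested were higher in CD36+ and 0 lower, beside 12.3% and 12.0% of all genes. Of the secretion and trimming genes, 6 were tested in each comparison, with 1 higher and 3 lower in CD36+ and 2 higher and 2 lower in the DN library. Tll1, a protease related to BMP1, was at 115, 169 and 0.0406 CPM, and Bmp1, which trims procollagen, at 4.39, 3.15 and 22.9 CPM. Sec23a and Sec24d, coat proteins of vesicles leaving the endoplasmic reticulum, were at 99.0, 179 and 37.8 CPM and at 40.7, 54.4 and 74.2 CPM. Of the 5 lysyl oxidases, which cross-link collagen and elastin, Lox was at 17.2, 0.0990 and 0.0135 CPM, Loxl3 at 4.80, 5.33 and 10.3 CPM, and Loxl2 at 4.09, 1.56 and 1.18 CPM. Of the 2 tested between CD36+ and PDPN+, 1 was higher and 0 lower, and the 1 tested between DN and PDPN+ was not apart.

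Partners of the elastic fibre were divided, with 1 higher and 4 lower of 10 tested in CD36+ and likewise 1 higher and 4 lower of 10 in the DN library, each against PDPN+. For all genes the shares higher and lower were 15.1% and 17.6% in CD36+ and 15.0% and 19.3% in DN. Between CD36+ and DN they were 12.3% and 12.0%. Mfap3 was at 44.5, 96.9 and 116.6 CPM, and the latent TGF-beta binding proteins Ltbp4 and Ltbp1 at 35.6, 66.9 and 19.9 CPM and at 42.2, 24.0 and 35.1 CPM. Emilin2 was higher against its list, at 23.1, 27.1 and 1.91 CPM. Efemp1, a fibulin relative, was at 50.2, 0.0198 and 13.3 CPM and was higher in CD36+ than in DN, where 1 partner was higher and 2 lower of 7 tested. Of the other proteoglycans, 5 were tested in CD36+ with 2 higher and 2 lower, and 4 in the DN library with 1 higher and 1 lower. Srgn (serglycin), a proteoglycan of secretory granules, was at 1007, 540 and 13.1 CPM, and Agrn (agrin), of basement membranes, at 9.63, 11.9 and 83.9 CPM. Hspg2 (perlecan), also of basement membranes, was at 34.3, 4.26 and 2.66 CPM, and Ncan at 30.3, 35.6 and 25.3 CPM. Of the SPARC and periostin relatives, 4 were tested in each comparison, with 1 higher and 1 lower in CD36+ and 2 higher and 1 lower in the DN library. Sparcl1 was at 959, 685 and 32.2 CPM, Tgfbi at 17.9, 134 and 9.17 CPM, and Fstl1 at 94.7, 82.6 and 162 CPM. Smoc2 ran the other way at 0.0169, 0.0198 and 13.1 CPM. Among collagen receptors other than integrins, only Ddr2 was tested, at 20.3, 35.2 and 13.2 CPM, and it was apart in neither comparison. Lair1 was at 5.14, 7.72 and 1.41 CPM and Ddr1 at 0.0338, 0.0198 and 5.62 CPM.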

How the data were processed

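Bulk RNA sequencing of 3 sorted mouse mammary populations was used, 1 library each, with groups taken from the labels. The authors deposited estimated counts per gene, TPM, and gene lengths in bases, per the file headers. Salmon 0.9.1 and mm10 were used, per the submitters' processing notes. The sources used here state no annotation release, strand setting or read filter. Estimated counts were rounded to whole numbers and scaled with TMM factors (edgeR 4.0.16, R 4.3.3) over all 3 libraries. The rest ran in Python 3.11.15 (scipy 1.17.1, pandas 2.3.3, numpy 2.4.6, matplotlib 3.10.9). Symbols and coordinates came from GENCODE M21. With the version, 50410 of 52661 identifiers matched, and 52566 without it. Promoters came from RefSeq (GRCm38.p6).

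How the deposited length was averaged over transcripts was not worked out. Reading it as a mean divided by the number of transcripts held within 1% for 20.5%, 20.6% and 19.2% of genes with several transcripts in the CD36+, DN and PDPN+ libraries. The length was therefore used only for genes with 1 transcript, to find the factor between counts, length and TPM. That factor held within 1% for 99.9% of such genes in each library, and implied lengths rest on it.

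No test was possible, and intervals and floors (3 counts) cover counting error only, since reads without molecular identifiers may be copies. A count of 3 was 0.0507, 0.0594 and 0.0406 CPM in the CD36+, DN and PDPN+ libraries. Median log2 ratios used a prior count of 2. The scaling and the 4-fold rule were also run on simulated counts in which few genes were changed, as many up as down. Many more genes differed between the real libraries, so the simulation does not check the scaling there. Named genes were members that reached 10 CPM anywhere, the 3 genes of each pathway list with the highest mean level, list genes apart against their list, and the genes of the sort. Bmp1 and Hspg2 and the single fibroblast markers were chosen after their values were seen. The members and lists were chosen with earlier results of these data known. Protein sequences were not used here.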

Additional observations from a re-analysis of the deposited data

How the results depend on the processing

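With no minimum level, members apart numbered 11 higher and 34 lower in CD36+ relative to PDPN+ (4 and 22 with the minimum), 8 higher in DN relative to PDPN+ (3), and 13 higher and 13 lower in CD36+ relative to DN (2 and 3). At 2-fold, the counts were 8 higher, 5 higher, and 5 higher and 6 lower in the same comparisons (21.1%, 13.5%, and 22.7% and 27.3% of members tested), beside 25.3%, 25.4%, and 23.0% and 21.02% across the background. Where the mean over the libraries had to reach 10 CPM, 14 were lower in CD36+ relative to PDPN+, 15 lower in DN relative to PDPN+ and 6 higher in CD36+ relative to DN. For the settings with no minimum or with a mean of 10 CPM, no share across all genes is given. Those counts therefore have no background here. In TPM, 1 member of 15 tested was lower in CD36+ relative to DN, beside 1058 of 8176 genes. Other counts stayed within 1.5 times.

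Of 90 log2 ratios of members, the sign turned for 7 in TPM, 2 with total counts and 1 with upper quartile factors, all for members that were not apart. Total counts moved the median of all genes by -0.40, -0.23 and -0.17 on the log2 scale (CD36+ over PDPN+, DN over PDPN+, CD36+ over DN), and upper quartile factors by 0.27, 0.28 and -0.01. No paired analysis was possible because each population had 1 library. Leaving out a library was not possible either. Ratios against a library with 0 counts are bounded on 1 side only, and those from 1 to 3 counts have wide intervals.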

Other observations

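Genes of hyaluronan, the sugar polymer that versican binds, were outside the groups above. Has2, a hyaluronan synthase, was at 0.0338 CPM in CD36+, 16.1 CPM in DN and 123 CPM in PDPN+, and Has1 was at 0, 0.0198 and 57.9 CPM. Cd44, a hyaluronan receptor, was at 19.4, 65.0 and 534 CPM. Cemip2, named for its link to hyaluronan breakdown, ran the other way at 1164, 1039 and 154 CPM. Of the 8 genes listed, 4 were tested in each comparison with PDPN+, with 1 higher and 3 lower in both. Across all genes tested, 15.1% were higher and 17.6% lower in CD36+, and 15.0% and 19.3% in DN.

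Some small leucine-rich proteoglycan genes lie side by side. On chromosome 13, Ecm2 was at 29.1, 40.3 and 8.22 CPM, while its neighbour Aspn, 11653 bases away on the same strand, was at 2.03, 0.0396 and 20.2 CPM. On chromosome 1, Prelp was at 41.2, 28.0 and 50.1 CPM, and Fmod, 115839 bases away and head to head with it, was found in the PDPN+ library alone. Of the 12 such genes outside the members, 3 were tested in each comparison, with 0 higher and 1 lower in CD36+ and 1 higher and 1 lower in DN, each relative to PDPN+. The shares over all genes were 15.1% higher and 17.6% lower in CD36+, and 15.0% and 19.3% in DN.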
